A study of Homo sapiens with 6 samples.

Results

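The miR-26 family was represented by 3 of the 413 mature miRNAs in the deposited table, taken as every entry whose name starts with hsa-miR-26a- or hsa-miR-26b-. These were hsa-miR-26a-5p, hsa-miR-26b-5p and hsa-miR-26a-2-3p. Small RNA had been sequenced in 2 groups of 3 libraries, 24 h after the start of treatment. The cells were MDA-MB-231, a long-established human breast cancer line of the triple-negative type. The WA group received Withaferin A (WA), a steroidal lactone of the plant Withania somnifera, at 2 µM. The vehicle group received DMSO according to the paper, whereas the sample labels call these cells untreated. The question was how the miRNA profile differs between WA-treated and vehicle-treated cells of this single line. The paper describes the replicates as independent.

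miR-26 microRNAs are produced from introns of the CTDSP genes, which encode small phosphatases that act on the carboxy-terminal domain of RNA polymerase II. The 5p arm is the strand that is usually kept in Argonaute, and its seed, bases 2 to 8, pairs with target messages. Known targets include EZH2, the histone methyltransferase of Polycomb repressive complex 2, and cyclins and kinases of the G1/S transition. The family is described as growth-restraining in several tumours, breast cancer among them.

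The mature sequences of the 3 family members are shown 5′ to 3′ because they decide which of them can be told apart by sequencing. The seed is in capitals, and the sequences are those of RefSeq on GRCh38.p14.
hsa-miR-26a-5p: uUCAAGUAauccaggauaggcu
hsa-miR-26b-5p: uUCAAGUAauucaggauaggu
hsa-miR-26a-2-3p: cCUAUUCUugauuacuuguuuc

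hsa-miR-26a-5p and hsa-miR-26b-5p had the same seed. Over the 21 bases that could be compared from the 5′ end they differed by C11U and C21U, counted from 1 at the 5′ end with the base of miR-26a-5p first. miR-26a-5p is 1 base longer, at 22 bases. Of 2370 mature miRNA names in the RefSeq table, 4 had this seed. The others, miR-1297 and miR-4465, had no entry among the 413 miRNAs and were not analysed here. The seed of miR-26a-2-3p was different and was found in 2 names, those of the 3p arms of the 2 miR-26a hairpins.

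The hairpins are shown next, with both mature arms in capitals, because miR-26a-5p comes from 2 of them and the 3p arm from only 1 of these.
MIR26A1: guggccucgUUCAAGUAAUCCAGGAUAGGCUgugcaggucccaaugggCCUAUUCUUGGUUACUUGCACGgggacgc
MIR26A2: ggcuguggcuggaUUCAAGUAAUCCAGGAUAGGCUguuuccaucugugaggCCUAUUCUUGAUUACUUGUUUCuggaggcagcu
MIR26B: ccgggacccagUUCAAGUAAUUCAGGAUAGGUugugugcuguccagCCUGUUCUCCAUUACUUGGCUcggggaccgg

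MIR26A1 (ENSG00000199075) lies at chr3:37969404-37969480 on the plus strand, in intron 5 of CTDSPL. MIR26A2 (ENSG00000207789) lies at chr12:57824609-57824692 on the minus strand, in intron 5 of CTDSP2. MIR26B (ENSG00000199121) lies at chr2:218402646-218402722 on the plus strand, in intron 4 of CTDSP1. Each hairpin has the strand of its host gene, and introns are those of the canonical transcript in GENCODE release 44. The hairpins were spanned by 6 of 8 CTDSPL transcripts, 6 of 8 CTDSP2 transcripts and 15 of 19 CTDSP1 transcripts, and overlapped 0 exons of these. The MIR26B intron was the shortest, at 629 bases, against 2026 for MIR26A2 and 3524 for MIR26A1.

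The mature miR-26a-5p was found in 2 of the 1562 RefSeq hairpins, so its reads cannot be assigned to CTDSPL or CTDSP2. miR-26b-5p and miR-26a-2-3p were each found in 1 hairpin. miR-26a-2-3p differs from the 3p arm of MIR26A1 by A11G, U19C, U20A, U21C and C22G, with its own base first. The 3p arms miR-26a-1-3p and miR-26b-3p had no entry in the table and were not analysed here. In the predicted minimum-energy fold, 20 of the 22 bases of the 5p arm were paired in MIR26A1, 19 of 22 in MIR26A2 and 18 of 21 in MIR26B. How the authors counted reads that could match both miR-26a-5p and miR-26b-5p is not given in the sources used here, so the split between them is uncertain to that extent.

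Library depth differed widely. Values are the authors' read counts divided by a size factor, called normalized values, and all values of a library are multiples of one smallest step, which is taken as 1 read wherever reads are given. The vehicle libraries held 710878 to 4778066 reads, and WA replicates 1 to 3 held 156442, 564882 and 2232934. WA replicates 1 and 2 were the shallowest libraries of all. WA replicate 3 stood apart from the other WA libraries. Across the 413 miRNAs its Pearson correlation on the log2 scale was 0.630 and 0.641 with WA replicates 1 and 2, which had 0.964 with each other, and from 0.772 to 0.797 with the vehicle libraries. Vehicle replicate 1 stood apart within its group too, with 0.785 and 0.792 with vehicle replicates 2 and 3, which had 0.987 with each other. The list of 5 miRNAs typical of this cell line was detected in full in every library. It summed to 272900 to 435300 CPM (counts scaled to a common library total over the 413 miRNAs). Epithelial miRNAs, 4 of 6 with an entry, summed to 140 to 1891 CPM in the vehicle group and to 739 CPM in WA replicate 3, and all 4 were listed at 0 in WA replicates 1 and 2. Endothelial miRNAs (2 of 2) were at 234 to 1392 CPM in vehicle libraries and at 63.9, 21.2 and 3523 CPM across the WA replicates. For blood cells only miR-486-5p of 7 had an entry, at 360 to 909 CPM in vehicle libraries and at 0, 5.31 and 729 CPM across the WA replicates. The epithelial, endothelial and blood miRNAs were thus low in WA replicates 1 and 2 and higher in WA replicate 3, opposite to miR-26b-5p. The liver miRNA miR-122-5p stayed at or under 11.3 CPM in all libraries, and none of 3 muscle miRNAs had an entry.

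miR-26a-5p was an abundant miRNA in both groups and its level did not pass the test for a difference. Its normalized value was 9388, 29279.8 and 28269.7 in vehicle replicates 1 to 3. Across the WA replicates it was 15902, 17147 and 16684. The 3 WA libraries lay close together and inside the range of the vehicle libraries, whose replicate 1 was far below the other two. The highest value was 3.12 times the lowest in the vehicle group and 1.08 times in the WA group. The close WA values depend on the scaling, since in CPM they were 17534, 16989 and 9945, against 9750, 21456 and 22039 in the vehicle group. In CPM, WA replicate 3 and vehicle replicate 1 were the low libraries.

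By rank among the 413 miRNAs, miR-26a-5p was 24, 8 and 10 in vehicle replicates 1 to 3 and 14, 14 and 23 in WA replicates 1 to 3. The group means of the normalized value were 22310 ± 11200 (SD, n = 3) and 16580 ± 629 (SD, n = 3). Its log2 fold change was -0.26 (standard error 0.722, 95% interval -1.94 to 1.43), with a limma adjusted p of 0.816. Without vehicle replicate 1 the log2 fold change was -0.80, with a limma adjusted p of 0.290.

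miR-26b-5p had a level that divided the WA libraries. Its normalized value was 1428, 1870.4 and 1693 in vehicle replicates 1 to 3, a narrow range in which the highest was 1.31 times the lowest. The WA replicates, in the same order, had 7379.9, 8547 and 1091. WA replicates 1 and 2 were above every vehicle library, and WA replicate 3 was below every one, so the groups overlapped. In CPM the vehicle replicates had 1483, 1371 and 1319.6, and the WA replicates had 8137, 8469 and 650.3. On both scales WA replicates 1 and 2 lay above, and WA replicate 3 below, the whole vehicle group. WA replicates 1 and 2 were also the shallowest libraries, and the part of depth in this pattern was not tested. In the shallowest library, WA replicate 1, miR-26b-5p rested on 1273 reads, with an exact 95% interval from 7698 to 8595 CPM.

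Its rank was 62, 60 and 63 in vehicle replicates 1 to 3, 26 in both WA replicates 1 and 2 and 79 in WA replicate 3. The group means were 1664 ± 223 (SD, n = 3) and 5673 ± 4011 (SD, n = 3), a ratio of 3.41. The log2 fold change was 1.31 (standard error 0.892, 95% interval -0.77 to 3.39), with a limma adjusted p of 0.381, so no difference between the groups was established. Without WA replicate 3 it was 2.26 (95% interval 1.23 to 3.29), with a limma adjusted p of 0.00699. In that fit 45.0% of all 327 tested miRNAs had an adjusted p under 0.05, and miR-26b-5p was number 91 by p-value.

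**Figure D1:**
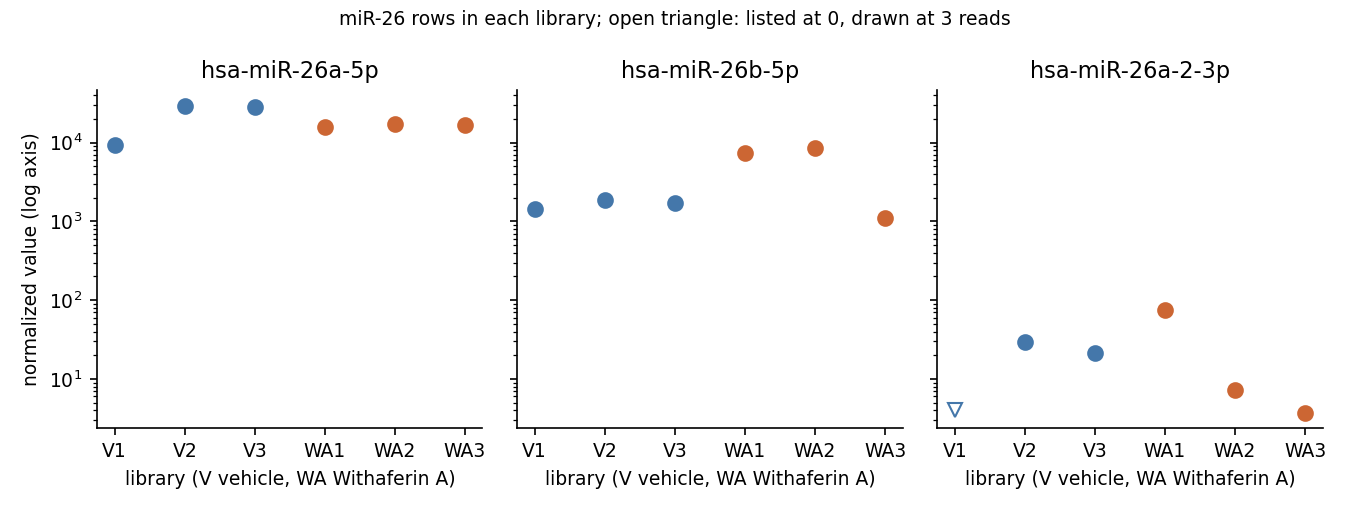
Normalized value (log axis) of the 3 miR-26 entries in each of the 6 libraries, blue for vehicle and orange for WA, with an open triangle at 3 reads where the value is listed at 0. miR-26b-5p is high in WA replicates 1 and 2 (7379.9 and 8547) and low in WA replicate 3 (1091), whereas miR-26a-5p lies between 15902 and 17147 in all WA libraries.

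Of the 3 family members, 0 were called at a limma adjusted p under 0.05, and 5.50% of the 327 tested miRNAs were called. For 0 of the 3 did the groups not overlap, compared with 27.2% of the tested miRNAs. All 3 had passed the filter, which asked for 3 or more libraries with a normalized value of 10 or more. Their median log2 fold change was 0.71, which is the value of miR-26a-2-3p, the member with the fewest reads. The median of all tested miRNAs was -0.91. Other scalings moved that median to between -1.75 and -0.66. Values of 0 also enter it. Of the 413 miRNAs, 166, 146 and 52 were listed at 0 across the WA replicates, and 21, 3 and 2 across the vehicle replicates. A place above the median is therefore not read as a rise. Relative to the median of the same fit, each family member lay on the higher side under the scalings tried. With a value of 10 asked in every library the median was -0.10, and miR-26a-5p lay below it. miR-26a-5p also lay below the median when a GC trend was removed (-0.96 against -0.88). In the order of log2 fold changes from the highest, miR-26b-5p was number 58, miR-26a-2-3p number 90 and miR-26a-5p number 136 of 327. With 3 members, these counts are a description.

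**Figure D2:**
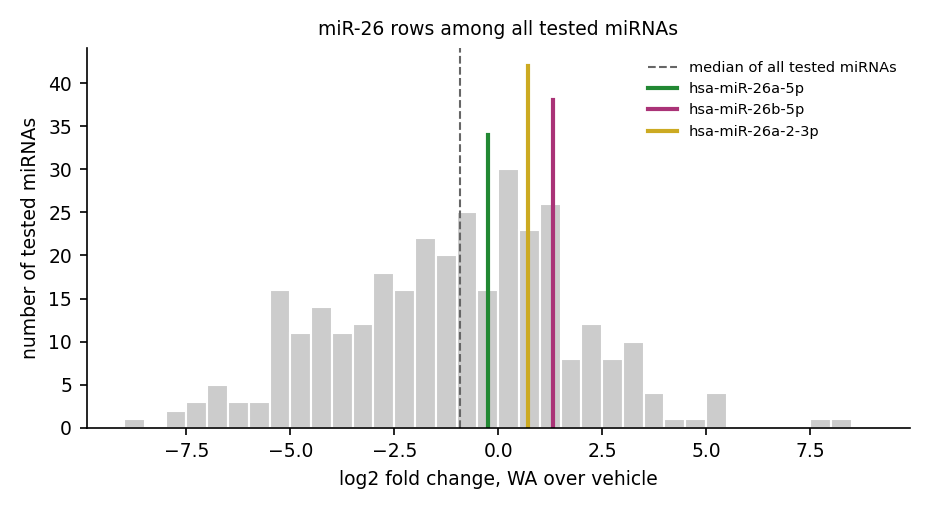
Histogram of the log2 fold change (WA over vehicle) of the 327 tested miRNAs, with the 3 miR-26 entries as coloured lines (line height has no meaning) and the median as a dashed line. The lines stand at -0.26, 0.71 and 1.31, all to the right of the median at -0.91.

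The balance between the paralogs was measured within each library, where it does not depend on scaling. miR-26b-5p and miR-26a-5p differ in GC content (33.3% and 40.9%), and the share was not adjusted for a GC trend. The part of base composition in the share was not tested. miR-26b-5p made up 13.2%, 6.0% and 5.65% of the summed reads of miR-26a-5p and miR-26b-5p in vehicle replicates 1 to 3. Across the WA replicates the share was 31.7%, 33.3% and 6.14%. The exact 95% interval was 30.3% to 33.2% in WA replicate 1 and 12.5% to 14.0% in vehicle replicate 1, so counting error is small beside these differences. The share was higher in WA replicates 1 and 2 than in every vehicle library. In WA replicate 3 its interval, 5.83% to 6.45%, overlapped that of vehicle replicate 2, 5.86% to 6.15%.

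Expressed as a ratio, miR-26a-5p had 6.58, 15.6 and 16.7 times the value of miR-26b-5p across the vehicle replicates and 2.15, 2.01 and 15.3 times across the WA replicates. The mean share was 8.28% ± 4.26 (SD, n = 3) in the vehicle group and 23.7% ± 15.2 (SD, n = 3) in the WA group. The difference of 15.4 percentage points had a two-sided p of 0.2 in the exact permutation test, in which 3 libraries against 3 cannot go below 0.1. Over the 6 fits without a library the difference stayed positive, from 10.6 percentage points without WA replicate 2 to 24.2 without WA replicate 3. Their two-sided exact permutation p ran from 0.1 to 0.5. Every such fit kept WA replicate 1 or 2, which had the high shares, so the constant sign says little. The intervals cover counting error only, since reads amplified by PCR without molecular identifiers are not independent molecules.

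**Figure D3:**
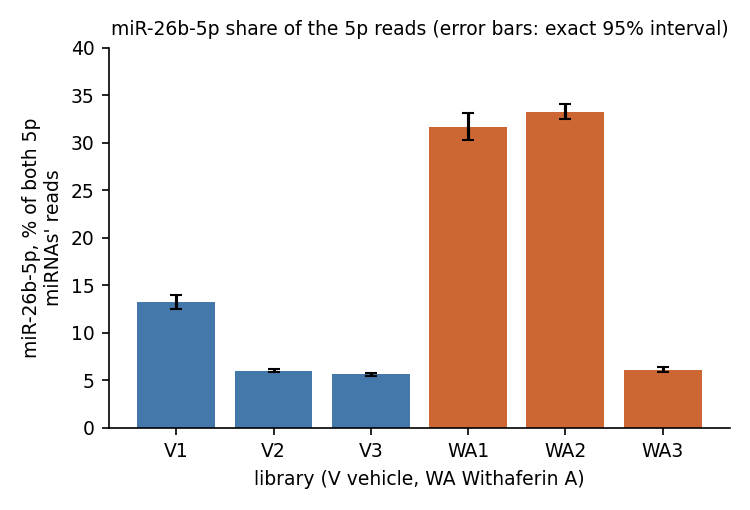
Share of miR-26b-5p in the summed reads of miR-26a-5p and miR-26b-5p, in percent, in each library (bars), with exact 95% binomial intervals as error bars. WA replicates 1 and 2 stand at 31.7% and 33.3%, and the other 4 libraries at 5.65% to 13.2%.

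The sum of both 5p miRNAs, which have the seed in common, was 11233, 22827 and 23358 CPM in vehicle replicates 1 to 3. The WA replicates had 25671, 25458 and 10595 CPM. WA replicates 1 and 2 were above every vehicle library by a small margin and WA replicate 3 was below every one. The group means were 19140 ± 6853 (SD, n = 3) and 20570 ± 8643 (SD, n = 3) CPM, with a two-sided p of 0.6 in the exact permutation test. The sign of this difference depended on the scaling. In deposited normalized values the WA mean was lower by 1726, with a two-sided exact permutation p of 0.9.

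miR-26a-2-3p, the 3p arm of MIR26A2, was a rare product. Its normalized value was 0, 29.4 and 21.1 across the vehicle replicates. Across the WA replicates it was 75.4, 7.15 and 3.76, which rested on 13, 4 and 5 reads. Vehicle replicate 1 was listed at 0, and its exact 95% interval reached 5.19 CPM. It is drawn at 3 reads, a normalized value of 4.06. WA replicate 1 was the highest library and the shallowest, and the groups overlapped. The log2 fold change was 0.71 (standard error 1.71, 95% interval -3.27 to 4.70), with a limma adjusted p of 0.787. It changed sign when vehicle replicate 1 (-0.85) or WA replicate 1 (-0.49) was left out.

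As a share of the reads of both miR-26a arms, miR-26a-2-3p was 0%, 0.10% and 0.0745% across the vehicle replicates and 0.472%, 0.0417% and 0.0225% across the WA replicates. The 5p arm thus made up nearly all of these reads in every library. The exact 95% interval in WA replicate 1, 0.251% to 0.805%, lay above those of the other libraries, and that in WA replicate 3, 0.00731% to 0.0525%, lay below those of vehicle replicates 2 and 3. The difference between the group means was 0.120 percentage points, with a two-sided exact permutation p of 0.8. It was -0.0262 without WA replicate 1. Reads of the 5p arm can come from both hairpins, and those of this 3p arm from MIR26A2. The share can therefore understate the 3p fraction of MIR26A2 itself.

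**Figure D4:**
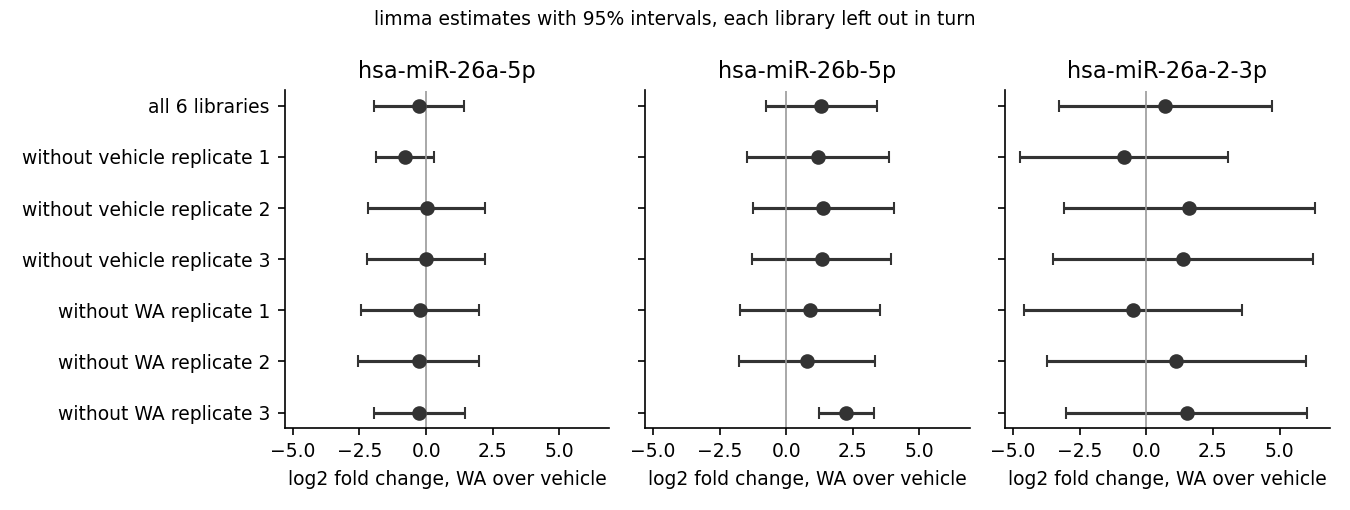
Log2 fold change (WA over vehicle, limma) of each miR-26 entry with its 95% interval, over all 6 libraries and in the 6 fits that omit a single library. The interval of miR-26b-5p lies clear of 0 when WA replicate 3 is left out (2.26, from 1.23 to 3.29) and spans 0 in the other fits, as do the intervals of miR-26a-5p and miR-26a-2-3p in every fit.

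Base composition also set WA replicates 1 and 2 apart from the other libraries. The mature sequence of miR-26b-5p has 33.3% G and C (7 of 21 bases), that of miR-26a-5p 40.9% (9 of 22) and that of miR-26a-2-3p 31.8% (7 of 22). A mature sequence was at hand for 295 of the 327 tested miRNAs, or 90.2%. Across these, the Pearson correlation between GC content and a library's deviation from the mean over libraries was 0.236, 0.200 and 0.308 in vehicle replicates 1 to 3. It was -0.270, -0.269 and 0.00676 in WA replicates 1 to 3. WA replicates 1 and 2 thus had relatively more of the AU-rich miRNAs, the vehicle libraries relatively fewer, and WA replicate 3, with almost no trend, lay between them. The miR-26b-5p value of WA replicate 3 lay below those of the vehicle libraries. The correlation between GC content and the log2 fold change was -0.32. The points share libraries and are a description.

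With the GC trend removed from each library, the log2 fold change of miR-26b-5p was 0.05 (95% interval -1.59 to 1.69, limma adjusted p of 0.958). Without WA replicate 3 as well, it was 0.68 (95% interval -0.33 to 1.69, limma adjusted p of 0.224), so the call made without that library was not kept. miR-26a-5p moved to -0.96 (limma adjusted p of 0.406) and miR-26a-2-3p to -0.66 (limma adjusted p of 0.784) under the GC adjustment over all 6 libraries. Of the 295 miRNAs with a sequence, which alone were in the adjusted fit, 0 were called, with 72 at an unadjusted limma p under 0.05. The trend had opposite signs in the vehicle libraries and in WA replicates 1 and 2, and it was removed without regard to treatment. Any treatment difference linked to GC content was therefore removed with it, and the 2 cannot be told apart here. The adjustment was added after the data were seen, and the part of base composition in the miR-26b-5p values was not tested.

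**Figure D5:**
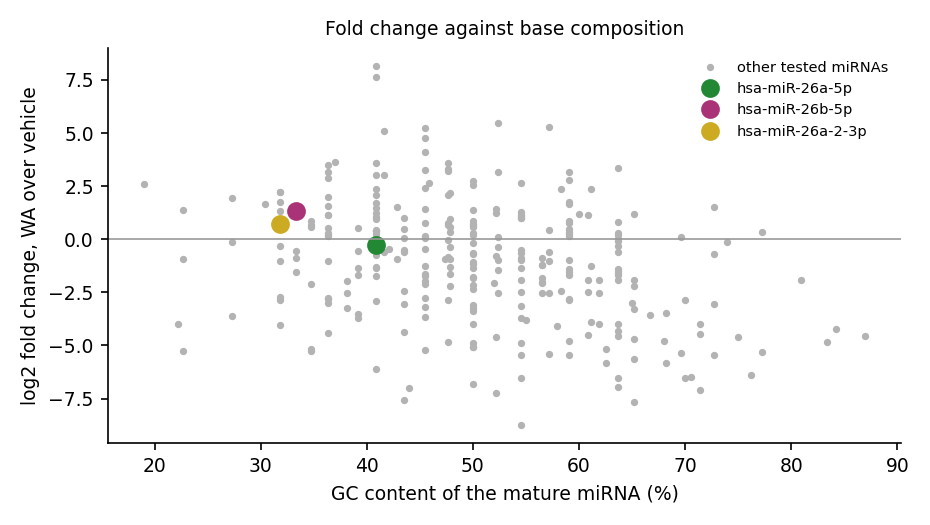
Log2 fold change (WA over vehicle) against the GC content of the mature miRNA in percent, for 295 tested miRNAs (grey) with the 3 miR-26 entries coloured. The cloud falls with GC content (Pearson correlation -0.32), and miR-26b-5p and miR-26a-2-3p, at 33.3% and 31.8%, lie further to its AU-rich side than miR-26a-5p at 40.9%.

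Stromal miRNAs were high in the same libraries as miR-26b-5p, WA replicates 1 and 2. The 4 of 6 with an entry (miR-143-3p, miR-145-5p, miR-199a-3p and miR-199b-3p) summed to 16.9 to 45.8 CPM in the vehicle libraries, with 3 of them listed at 0 in vehicle replicate 1. The sum was 6897 and 7979 CPM in WA replicates 1 and 2 and 79.3 CPM in WA replicate 3. The part of these and of the other marker lists in the miR-26b-5p result was not tested. In bulk RNA, a different number of cells of one kind and a different amount of RNA per cell cannot be told apart.

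The miRNAs whose pattern was most like that of each 5p member were found by the Pearson correlation of log2(normalized value + 1) over the 6 libraries. For miR-26b-5p the first 3 of 326 were let-7f-5p (0.981), miR-143-3p (0.980) and miR-450b-5p (0.976). Each was higher in WA replicates 1 and 2 than in the other libraries. For miR-26a-5p they were miR-301a-5p (0.986), miR-140-5p (0.958) and miR-27b-3p (0.958). In each of these, vehicle replicate 1 was the lowest library and vehicle replicates 2 and 3 were the highest. The correlation between miR-26a-5p and miR-26b-5p themselves was -0.0456. The points share depth and base composition with their libraries.

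Other miRNAs known to act on the same messages were described from lists. Of 5 miRNAs known to target EZH2, 2 were tested and 0 passed in either direction, and 5.50% of the 327 tested miRNAs passed. miR-101-3p had a log2 fold change of -0.55 (limma adjusted p of 0.751) and miR-138-5p of -1.22 (limma adjusted p of 0.496). Without WA replicate 3, where 45.0% of all tested miRNAs were called, miR-138-5p was called at -2.40 (limma adjusted p of 0.0193). Of 12 miRNAs known to restrain G1/S progression, 10 were tested, 0 passed in either direction, and 2 had an unadjusted p under 0.05, as had 86 of the 327 tested miRNAs. These were miR-16-5p, at 4.10 (limma adjusted p of 0.0678), and miR-15a-5p, at 3.60 (limma adjusted p of 0.0837). The median log2 fold change of the 10 was 1.54, and without WA replicate 3 it was 1.28, beside 1.31 and 2.26 for miR-26b-5p in the same fits. Without that library 3 of the 10 were called, 2 higher and 1 lower.

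Other families served for comparison. In the PANK introns lie the miR-103a and miR-107 hairpins, and 0 of 2 tested miRNAs from these passed the test. Of the miR-30 family, 0 of 10 passed, and 5.50% of the 327 tested miRNAs did. In the fit without WA replicate 3, 45.0% of all tested miRNAs were called. That fit called 4 of the 10 miR-30 members, 1 higher (miR-30b-5p, at 1.83) and 3 lower (miR-30a-5p, miR-30a-3p and miR-30c-2-3p). It called 0 of the 2 from the PANK introns. miR-103a-3p and miR-107 had log2 fold changes of 0.58 (limma adjusted p of 0.610) and 0.34 (limma adjusted p of 0.793). The miR-30 members ran from -5.07 to 1.08. Within the miR-30 family, miR-30b-5p had normalized values of 386, 681 and 426 in the vehicle group. Its WA values were 2052, 1435 and 361. It was therefore high in WA replicates 1 and 2 and low in WA replicate 3, as miR-26b-5p was. miR-30c-5p had vehicle values of 20930, 5328 and 5703 and WA values of 3531, 3454 and 14920, without that pattern. Whether the miR-26 paralogs differed from these families in their response was not tested.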

How the data were processed

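All 6 small RNA libraries of MDA-MB-231 cells were analysed, 3 per group. Per the paper and the submitters' processing notes, the authors used Trim Galore for trimming and Bowtie for alignment to GRCh38.p10, set aside reads from noncoding RNA of other classes, and assigned what was left to mature miRNAs. The deposited signal per miRNA is the read count that the authors divided by a DESeq2 size factor. Columns with p-values, a log2 fold change and its linear ratio, from the authors' own comparison, were deposited too and were not used.

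Because the deposited values are normalized, limma 3.58.1 in R 4.3.3 was applied to log2(value + 1) with a variance trend, as a two-sided unpaired test. Adjustment (Benjamini-Hochberg) was over the 327 miRNAs that reached 10 in 3 or more libraries. On this scale, changes of low values are understated. Whole multiples (within 0.01) were found for 100% of values above 0, but too few values lay low enough to fix the step for a count model. Shares were compared by exact permutation tests and given exact Clopper-Pearson 95% intervals. Read numbers and these intervals hold only if the step is 1 read, as was assumed. The family members were all entries of that name, likeness was limited to the 3 highest correlations, and the lists came from general knowledge. miR-30b-5p and miR-30c-5p were singled out after their values were seen. Members and lists were chosen with earlier results of these data known. Sequences came from RefSeq (GRCh38.p14), gene models from GENCODE release 44 and folds from RNAfold 2.7.2. The fit was tested on simulated data. Alternatives were other scalings, pseudocounts, filters, no variance trend, omission of single libraries, a block for the replicate number and, added after the data were seen, removal of a GC trend and an upper quartile over all miRNAs. Other steps used Python 3.11.15, pandas 2.3.3 and scipy 1.17.1.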

Additional observations from a re-analysis of the deposited data

How the results depend on the processing

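The libraries share replicate numbers. Same-numbered libraries did not deviate together from their group means (correlations of -0.0692, 0.0571 and -0.0874). Deviations from a mean of 3 libraries depend on each other, so this check cannot exclude pairing. No pairing was assumed in the main fit. With the replicate block, log2 fold changes were as reported, no family member was called, and 24 miRNAs were called against 18 in all. The count was 53 with no filter, 7 with a pseudocount of 0.1 or of 10, 0 when every library had to reach 10 (29 at an unadjusted p under 0.05), 0 with the GC trend removed with or without the replicate block (69 and 72 unadjusted), and 119 with that trend removed and WA replicate 3 left out. With each library left out it ran from 0 to 147, the highest without WA replicate 3. Leaving out WA replicate 1 or 2, or vehicle replicate 2 or 3, gave 0, with 46 to 52 unadjusted. Over the same omissions miR-26b-5p lay between 0.78 and 2.26 and was called without WA replicate 3. miR-26a-5p lay between -0.80 and 0.0245, above 0 without vehicle replicate 2, and was 0.0145 when scaled to the upper quartile over all miRNAs. miR-26a-2-3p ran from -0.85 to 1.61, and was -0.66 with the GC trend removed, with or without the block, and -0.22 when WA replicate 3 was left out too. The arm share ran from -0.0262 to 0.198 percentage points. The summed CPM difference ran from -2518 (without vehicle replicate 1) to 6425 (without WA replicate 3), was -1113 and -1006 without WA replicates 1 and 2, and was -1726 and -15840 in deposited values and upper-quartile scaling. The other alternatives left the direction and side of the threshold of the members they tested as reported. miR-26a-2-3p was not tested when every library had to reach 10. Upper-quartile scaling moved miR-26b-5p to 0.48, miR-26a-5p to -1.09 and miR-26a-2-3p to 0.11. Pseudocounts of 0.1 and 10 moved miR-26a-2-3p to 1.69 and 0.24. The cause was not tested. TMM scaling, thinning and the count-based tests were not run, since reads could not be fixed. Depth limits miR-26a-2-3p most, at 4 to 13 reads in the WA libraries.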
